A study of Homo sapiens with 4 samples.

Results

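The line contrast between PC-3 and 22Rv1 cells was read from 4 arrays, with the construct held aside. The mean of the 2 PC-3 arrays was set against the mean of the 2 22Rv1 arrays, and the genes described were those whose PC-3 values both lay above, or both lay below, both 22Rv1 values. Of 17687 genes measured, 9720 (55.0%) met this rule, 4640 (26.2%) with PC-3 above and 5080 (28.7%) with 22Rv1 above. The rule is itself the contrast between the lines, so these counts are a description of it and nothing in them was tested.

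Both are established human prostate cancer lines. PC-3 was derived from a bone metastasis and grows without androgen, and 22Rv1 came from a xenograft and expresses the androgen receptor. Luminal prostate cells are known for androgen receptor target genes such as kallikreins and for E-cadherin junctions, which are held by alpha-catenin and guarded by the factors GRHL2 and ESRP1. Cells that have moved towards a mesenchymal state are known instead for ZEB1, vimentin and N-cadherin, for AP-1 and YAP/TEAD target genes and for secreted proteases. In ZEB1-expressing cells the E-cadherin gene is a known target of repression.

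The study made stable lines of each cell type by lentiviral transfer and puromycin selection, 1 with a short hairpin RNA against TNFRSF13B (shTNFRSF13B), a receptor of the TNF receptor superfamily, and 1 with the empty pLKO.1 vector. Each of the 4 conditions, PC-3 shTNFRSF13B, PC-3 empty vector, 22Rv1 shTNFRSF13B and 22Rv1 empty vector, was hybridised to 1 Affymetrix array, and all 4 share the vector and the selection. PC-3 cells were kept in F-12 medium and 22Rv1 cells in RPMI medium, both with heat-inactivated foetal bovine serum, so line and medium cannot be told apart. The 2 arrays of a line carry different constructs and are not replicates. No difference below therefore has a replicate error or a p-value, and the spread within a line holds the construct as well as the noise. Clonal selection within each stable line was not described in the sources used here.

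Values are on the log2 scale, with the 4 columns brought to a common distribution by quantile normalization, and a difference is PC-3 minus 22Rv1 unless stated. Pairs of values are given in the order shTNFRSF13B, then empty vector. The gap of a gene is the lowest value of the higher line minus the highest value of the lower line. A gene was called when the lines did not overlap and their means differed by at least 2-fold, 1 on the log2 scale. The background of an array was the 95th percentile of 349 olfactory receptor genes, which lay at 4.69 and 4.67 in PC-3 cells and at 4.93 and 4.85 in 22Rv1 cells. A least difference, written "at least", is one from background: both values of the lower line lay at or below background and were raised to the background of their array. Levels were not compared between genes, since each probe set binds its target differently. The gene lists below were written with earlier results of these data known. Their shares and medians therefore describe the chosen members and test nothing.

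The 22Rv1 empty vector array stood apart before normalization, with a median deposited log2 value of 5.33 against 6.93 to 7.01 on the other 3 arrays and a maximum of 19.77 against 18.37 to 18.44. After normalization, 11216 to 11749 genes lay above background on each array. The median absolute difference between constructs was 0.33 for PC-3 and 0.62 for 22Rv1, beside a median absolute difference between the lines of 0.58 on the shTNFRSF13B arrays and 0.79 on the empty vector arrays. TNFRSF13B itself stood at 4.56 and 4.99 in PC-3 cells and at 5.23 and 7.43 in 22Rv1 cells. It was called higher in 22Rv1, but the gap was 0.24. In either line its value was the lower of the pair with shTNFRSF13B, and in PC-3 cells the pair lay on either side of background. On the values as deposited it stood at 4.85 and 5.25 in PC-3 cells and at 5.63 and 6.08 in 22Rv1 cells. The size of its construct difference in 22Rv1 cells thus depended on the normalization.

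With the 2-fold limit, 2576 genes (14.6%) were called higher in PC-3 and 2682 (15.2%) higher in 22Rv1, 5258 (29.7%) in all. For 2954 genes (16.7%) the gap itself was at least 2-fold, 1492 (8.44%) higher in PC-3 and 1462 (8.27%) higher in 22Rv1. A further 2064 genes higher in PC-3 and 2398 higher in 22Rv1 did not overlap but fell under 2-fold, and the lines overlapped for the other 7967 genes. Of the olfactory receptor genes, 34.4% did not overlap and 4.01% were called, 5 higher in PC-3 and 9 higher in 22Rv1. Non-overlap alone was thus common among genes near background, and the 2-fold limit left few of them. Of the 13193 genes above background on at least 1 array, 38.9% were called. The median difference was 1.84 among genes called higher in PC-3, and 1140 of them differed by at least 4-fold and 326 by at least 16-fold. The corresponding numbers for 22Rv1 were 1.77, 1100 and 269. The gap was wider than the larger of the construct differences for 1548 (60.1%) of the genes called higher in PC-3 and 1558 (58.1%) of those called higher in 22Rv1. Genes above background on both arrays of the higher line and on neither array of the other numbered 437 for PC-3 and 396 for 22Rv1.

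**Figure D1:**
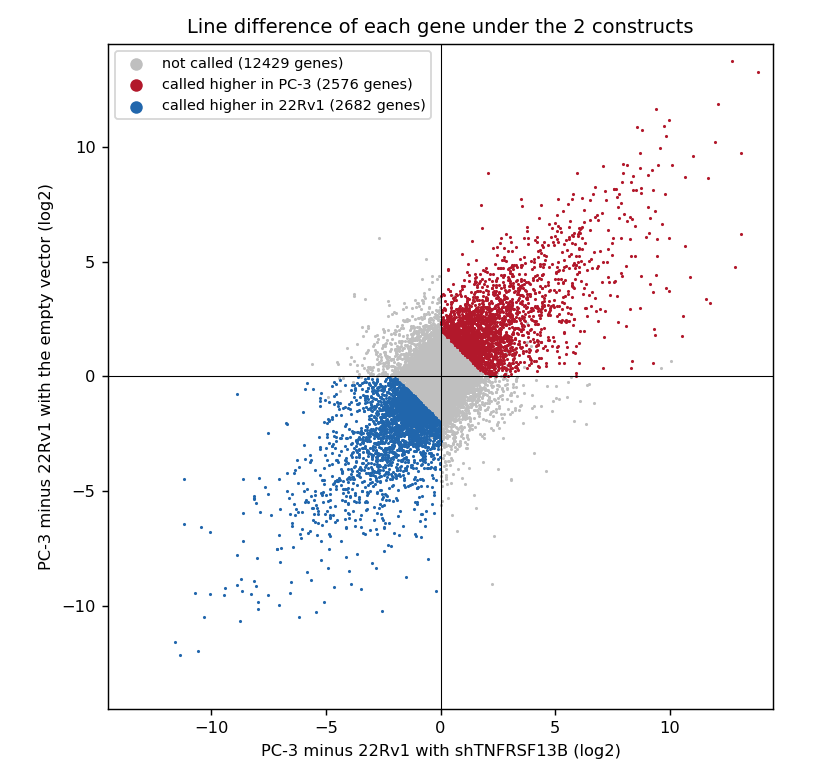
Each point is 1 of 17687 genes, with the PC-3 minus 22Rv1 log2 difference on the shTNFRSF13B arrays on the horizontal axis and on the empty vector arrays on the vertical axis; red marks the 2576 genes called higher in PC-3 and blue the 2682 called higher in 22Rv1. Called genes lie by construction in the upper right and lower left, and the grey points far from these corners are genes whose line difference turned with the construct.

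At the limit itself the values gave no natural break. PLS3, just inside, stood at 12.44 and 12.62 in PC-3 cells and at 11.53 and 11.54 in 22Rv1 cells. DHX35, just outside, stood at 7.61 and 8.05 against 7.02 and 6.64. The differences of both genes rounded to 1 on the log2 scale.

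The genes with the widest gaps higher in PC-3 included secreted proteins, surface receptors and proteases. MSMP, a small secreted protein also known as PC3-secreted microprotein, had the widest gap, with values of 18.11 and 17.16 in PC-3 cells and 4.26 and 3.89 in 22Rv1 cells. Both 22Rv1 values were below background, so its difference of 13.56 was at least 12.75 when measured from background. APOBEC3C, a cytidine deaminase, stood at 17.06 and 17.39 in PC-3 cells and at 4.34 and 3.62 in 22Rv1 cells, a difference of 13.24 and at least 12.34. Both genes were at background in 22Rv1 cells under either construct.

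Receptors for secreted ligands followed. GRPR, the receptor for gastrin-releasing peptide, was at 16.38 and 15.71 in PC-3 cells and at 4.28 and 3.84 in 22Rv1 cells. ADGRF1, an adhesion G protein-coupled receptor, was at 15.78 and 15.12 against 3.80 and 4.89. LPAR1, a receptor for lysophosphatidic acid, was at 15.03 and 15.73 against 5.65 and 4.05. These receptors lay far apart in the lines under either construct, and GRPR, at background in 22Rv1 cells, differed by at least 11.16. The nuclear receptor PPARG, known for its part in fat cell differentiation, was at 12.87 and 12.54 in PC-3 cells and at 3.37 and 3.30 in 22Rv1 cells, where it was below background.

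Proteases of the extracellular matrix and their inhibitors formed another group at the top. MMP13, a collagenase, reached 16.53 and 13.43 in PC-3 cells and stayed below background in 22Rv1 cells at 3.43 and 3.68, a difference of at least 10.09. PLAT, the tissue plasminogen activator, was at 16.17 and 16.16 against 6.06 and 6.96, so its values in PC-3 cells hardly moved with the construct. TFPI2, an inhibitor of serine proteases, was at 13.49 and 13.25 against 3.89 and 3.28, at least 8.48 apart. Of the whole list of matrix proteases and inhibitors, 14 of 23 measured genes (60.9%) were called higher in PC-3 and none higher in 22Rv1, against 14.6% and 15.2% of all genes, and 7 overlapped. The median difference of the list was 1.51, against -0.05 for all genes. The urokinase PLAU (12.71 and 12.55 against 5.86 and 5.73) and the collagenase MMP1 (15.79 and 12.32 against 4.91 and 7.99) were in the same direction. MMP10 (4.70 and 4.43 against 3.59 and 6.13) and the lysosomal protease CTSB (12.68 and 12.20 against 10.50 and 12.59) overlapped.

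**Figure D2:**
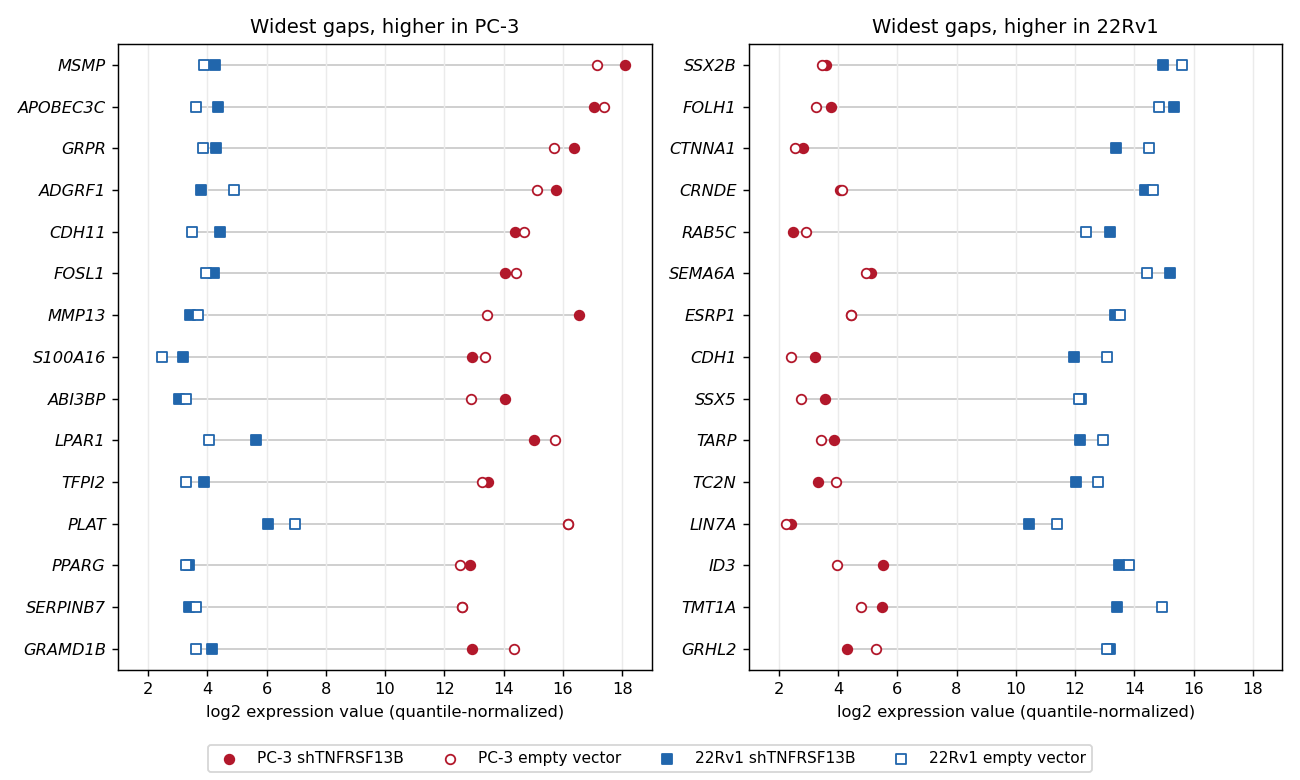
Log2 expression values of the 15 genes with the widest gap in each direction, red circles for PC-3 and blue squares for 22Rv1, filled for shTNFRSF13B and open for the empty vector, 1 array per symbol. In the left panel the 22Rv1 values lie between 2.46 and 6.96, with those of PLAT the highest, and in the right panel the PC-3 values lie between 2.26 and 5.52.

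The AP-1 subunit FOSL1, also called Fra-1, was at 14.03 and 14.43 in PC-3 cells and at 4.22 and 3.96 in 22Rv1 cells, a difference of 10.14 and at least 9.34. The AP-1 genes as a list did not share this pattern, with 2 of 11 called higher in PC-3, 1 higher in 22Rv1 and 7 overlapping. The 27.3% called was near the 29.7% of all genes but below the 38.9% of genes above background on at least 1 array. Without the 22Rv1 shTNFRSF13B array the counts were 3 and 5, and without the 22Rv1 empty vector array 4 and 1. FOSL2 was higher in PC-3 (9.31 and 9.17 against 6.72 and 7.61), and JUND was higher in 22Rv1 (5.54 and 4.71 against 6.39 and 10.71), where its values lay far apart. JUN overlapped, at 7.46 and 7.73 in PC-3 cells and at 5.66 and 10.31 in 22Rv1 cells.

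Since FOSL1 is a subunit of AP-1, RefSeq promoter windows were searched for the AP-1 motif TGANTCA on either strand. The windows, from 250 bases before to 50 bases after a start site on GRCh38.p14, were found for 14250 of the 17687 genes, 20090 windows in all, so some genes have several. The motif was in 7.68% of the windows of genes called higher in PC-3, 4.87% of those called higher in 22Rv1 and 6.23% of all windows. It was thus uncommon in each group, and a match is a run of letters, not a site of binding. The windows of MSMP (chr9:35754227-35754526, minus strand), TFPI2 (chr7:93890704-93891003, minus strand) and GSTP1 (chr11:67583562-67583861, plus strand) are shown 5′ to 3′ because these genes were far higher in PC-3 and each has a window with 1 match, given in capitals. The matches begin 142, 87 and 66 bases before the start site. The windows also differ in base composition, with 2 CG pairs for MSMP, 26 for TFPI2 and 36 for GSTP1, whose promoter is known to be methylated in many prostate cancers.
MSMP: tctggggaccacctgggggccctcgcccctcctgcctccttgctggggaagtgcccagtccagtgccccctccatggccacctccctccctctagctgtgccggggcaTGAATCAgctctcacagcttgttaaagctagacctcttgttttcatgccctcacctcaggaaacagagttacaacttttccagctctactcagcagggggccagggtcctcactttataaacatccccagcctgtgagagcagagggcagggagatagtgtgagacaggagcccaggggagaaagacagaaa
TFPI2: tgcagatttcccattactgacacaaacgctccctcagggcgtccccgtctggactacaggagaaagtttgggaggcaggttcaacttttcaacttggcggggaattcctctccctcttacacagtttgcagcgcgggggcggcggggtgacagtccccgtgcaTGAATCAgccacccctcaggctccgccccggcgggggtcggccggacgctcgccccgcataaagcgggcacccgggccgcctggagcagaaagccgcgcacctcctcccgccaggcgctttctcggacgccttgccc
GSTP1: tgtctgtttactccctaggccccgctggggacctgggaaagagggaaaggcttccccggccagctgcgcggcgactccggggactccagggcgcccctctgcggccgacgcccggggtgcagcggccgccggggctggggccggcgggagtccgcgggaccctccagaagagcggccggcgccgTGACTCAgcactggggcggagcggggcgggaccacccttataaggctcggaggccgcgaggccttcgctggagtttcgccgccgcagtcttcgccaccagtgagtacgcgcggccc

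Genes of the mesenchymal state were higher in PC-3 wherever they were called, with 12 of 23 (52.2%) called higher in PC-3, none called higher in 22Rv1 and 7 overlapping, against 14.6% and 15.2% called among all genes. Without the 22Rv1 shTNFRSF13B array, 11 were called higher in PC-3 and 3 higher in 22Rv1, and the median difference was 0.96 in place of 1.89. CDH11, a cadherin of mesenchymal cells, was at 14.39 and 14.68 in PC-3 cells and at 4.42 and 3.49 in 22Rv1 cells, at least 9.65 apart. VIM, the intermediate filament vimentin, was at 14.61 and 15.37 against 6.11 and 7.24. ZEB1, a repressor of epithelial genes, was at 11.42 and 11.36 against 4.19 and 3.69, at least 6.50 apart. In each of these the PC-3 values were close together and far above 22Rv1. CDH2, which codes for N-cadherin, was also higher in PC-3, at 10.58 and 11.13 against 4.59 and 4.94, and so was the receptor kinase AXL, at 9.95 and 11.80 against 4.97 and 5.12. Other known inducers of the state were not called. SNAI1, ZEB2 and TWIST2 overlapped, while TWIST1 (6.97 and 6.14 against 5.81 and 5.60) was higher in PC-3 and SNAI2 (8.05 and 7.80 against 8.44 and 8.11) higher in 22Rv1, both without overlap but by less than 2-fold. SPARC, a matrix protein, was called higher in PC-3 but at 11.79 and 5.89 against 2.42 and 4.10, so much of its mean came from the shTNFRSF13B array. The median difference of the list was 1.89, and it was 1.40 on the shTNFRSF13B arrays and 0.54 on the empty vector arrays.

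The epithelial junction genes lay mostly the other way. Of 29 measured, 17 (58.6%) were called higher in 22Rv1 and 4 (13.8%) higher in PC-3, against 15.2% and 14.6% of all genes, 8 overlapped, and the median difference was -1.99. CTNNA1, or alpha-catenin, which ties E-cadherin to actin and which PC-3 cells are known to lack, was at 2.80 and 2.55 in PC-3 cells and at 13.40 and 14.51 in 22Rv1 cells. The difference of -11.28 was at least 9.27 from background. CDH1, or E-cadherin, was at 3.22 and 2.40 against 11.97 and 13.08, and at least 7.85 apart. Transcripts of both partners of this junction were thus at background in PC-3 cells under either construct, whereas CTNNB1, or beta-catenin, was at 13.63 and 13.31 against 13.74 and 13.33 and overlapped.

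Regulators and other junction genes of the list lay the same way. ESRP1, which controls epithelial splicing, was at 4.43 and 4.43 in PC-3 cells and at 13.33 and 13.53 in 22Rv1 cells, at least 8.76 apart. GRHL2, a grainyhead factor that maintains epithelial genes, was at 4.30 and 5.30 against 13.19 and 13.07. The surface protease ST14 was at 3.14 and 4.32 against 9.70 and 10.31, at least 5.32 apart. ELF3, an epithelial ETS factor, was below background in PC-3 cells and at least 4.16 higher in 22Rv1, but its values of 6.50 and 11.16 in 22Rv1 cells differed strongly between constructs. The exceptions were the tight junction genes CLDN1 (13.22 and 9.15 against 3.88 and 7.07) and TJP1 (13.74 and 12.72 against 11.96 and 11.24) and the desmosomal gene PKP2, which were called higher in PC-3, and CLDN3 and CLDN4, which overlapped. The fourth gene called higher in PC-3 was a read-through transcript of TMX2 and CTNND1.

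**Figure D3:**
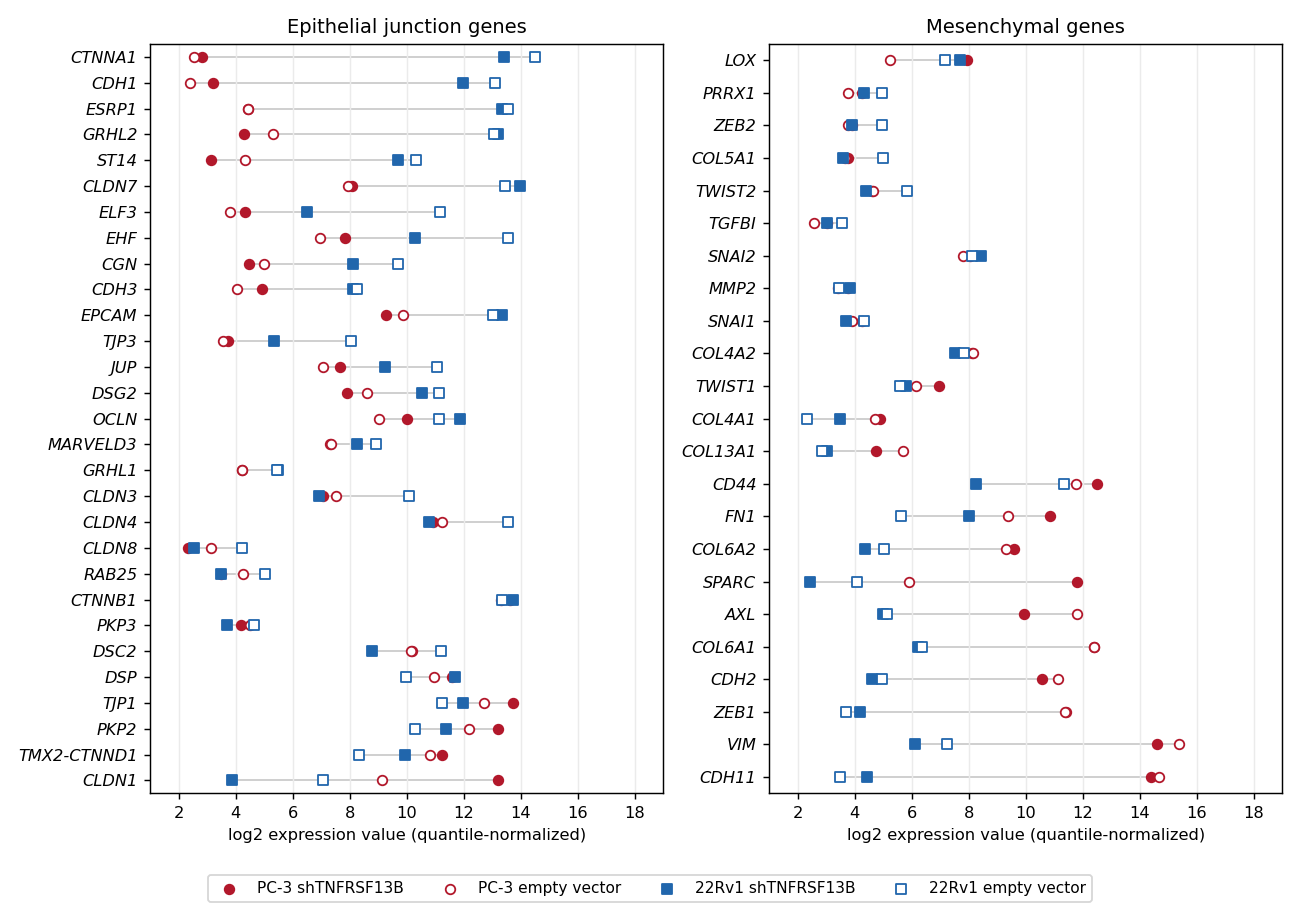
Log2 expression values of all measured members of the epithelial junction list (29 genes, left) and the mesenchymal list (23 genes, right), ordered by their difference, with red circles for PC-3, blue squares for 22Rv1, filled symbols for shTNFRSF13B and open symbols for the empty vector. The upper genes on the left and the lower genes on the right have clear space between the colours, from CTNNA1 and CDH1 to VIM and CDH11, and many genes lower on the left and higher on the right overlap.

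The motifs known for ZEB1 and GRHL2 were searched in the same windows and on either strand. The E-box CAGGTG was in 17.9% of the windows of genes called higher in PC-3, 20.7% of those called higher in 22Rv1 and 19.9% of all windows. The grainyhead motif AACNNGTT was in 2.75%, 3.34% and 3.23% of them. Neither share was far from that of all windows. Of the epithelial junction genes called higher in 22Rv1, 10 had a window, of which 6 held the E-box and 2 the grainyhead motif. Of the S100 and annexin genes called higher in PC-3, 14 had a window, of which 7 held the E-box and 0 the grainyhead motif. For the matrix proteases and inhibitors called higher in PC-3 these counts were 8, 3 and 1. All these counts are too few to be set against the shares. The window of ELF3 (chr1:202010337-202010636, plus strand) is shown with its E-box in capitals and that of CGN (chr1:151511137-151511436, plus strand), which codes for the tight junction protein cingulin, with its grainyhead motif in capitals. CGN stood at 4.47 and 4.98 in PC-3 cells and at 8.12 and 9.70 in 22Rv1 cells. The E-box of ELF3 begins 120 bases, and the motif of CGN 27 bases, before the start site.
ELF3: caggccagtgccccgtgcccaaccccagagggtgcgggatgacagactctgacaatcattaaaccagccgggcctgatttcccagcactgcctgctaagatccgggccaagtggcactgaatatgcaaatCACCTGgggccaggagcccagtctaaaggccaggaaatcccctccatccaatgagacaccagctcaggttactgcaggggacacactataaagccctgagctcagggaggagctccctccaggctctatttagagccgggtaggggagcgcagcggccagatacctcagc
CGN: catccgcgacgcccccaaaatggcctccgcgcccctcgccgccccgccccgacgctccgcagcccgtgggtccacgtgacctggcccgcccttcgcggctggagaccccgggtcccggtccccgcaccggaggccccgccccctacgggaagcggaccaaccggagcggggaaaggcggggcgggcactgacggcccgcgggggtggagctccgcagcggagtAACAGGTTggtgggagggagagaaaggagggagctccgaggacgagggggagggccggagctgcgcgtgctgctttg

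Genes of the androgen receptor and luminal list were higher in 22Rv1, with 16 of 25 measured called higher in 22Rv1, 1 higher in PC-3 and 4 overlapping, against 15.2% and 14.6% called among all genes. The median difference of the list was -1.90. The androgen receptor gene itself was not analysed here. FOLH1, the prostate-specific membrane antigen, was at 3.75 and 3.25 in PC-3 cells and at 15.35 and 14.83 in 22Rv1 cells, a difference of -11.59 and at least 10.41 from background. KLK4, a kallikrein protease of the prostate, was at 4.56 and 5.10 against 12.71 and 14.01. STEAP2, a metalloreductase of the prostate, was at 10.30 and 9.11 against 15.21 and 14.55, so it was well above background in both lines. Other kallikreins lay nearer, with KLK2 at 5.21 and 5.41 against 6.93 and 5.93 and KLK3, which codes for PSA, at 6.46 and 6.61 against 7.12 and 7.74. TMPRSS2, a known androgen receptor target, overlapped at 6.72 and 5.57 against 6.09 and 7.50. HOXB13, a homeobox factor of the prostate, was the gene of the list called higher in PC-3, at 12.03 and 11.74 against 9.50 and 9.09.

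The cell type markers were chosen with earlier results of these data known, so they describe the lines and are no check of their labels. Of the 10 markers of PC-3, 9 were called higher in PC-3 and KRT7 overlapped. Of the 8 measured markers of 22Rv1, FOXA1, KLK2, STEAP2 and FOLH1 were called higher in 22Rv1, KLK3 was higher but under 2-fold, TMPRSS2 and SLC45A3 overlapped, and TRPM8 was below background on all arrays. Of the 7 fibroblast, 7 leukocyte, 6 endothelial and 3 red blood cell markers measured, 1 each was called: LUM higher in 22Rv1, CD68 and KDR higher in PC-3 and HBA1 higher in 22Rv1. PECAM1 was below background on all arrays, COL1A1 and PTPRC were above it on 1 array each, and COL1A2, VWF and CD3E (5.22 and 5.20 against 4.94 and 4.92) were above it on all arrays. The summed log2 levels of the fibroblast markers were 31.87 and 29.89 in PC-3 cells and 33.57 and 31.89 in 22Rv1 cells, those of the leukocyte markers 37.28 and 36.20 against 30.95 and 32.03, and those of the endothelial markers 25.16 and 24.54 against 21.27 and 23.43. Their part in the results was not tested.

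Of 32 steroid and xenobiotic enzymes, 14 (43.8%) were called higher in 22Rv1, against 15.2% of all genes, and 12 overlapped. The 4 (12.5%) called higher in PC-3 were a share near the 14.6% of all genes. AKR1C3, which makes testosterone from its precursors, was at 6.85 and 5.63 in PC-3 cells and at 9.32 and 9.93 in 22Rv1 cells. MAOA, a mitochondrial amine oxidase, was at 5.93 and 3.85 against 12.44 and 12.82. ALDH1A3, which makes retinoic acid, was the other way at 13.74 and 14.14 in PC-3 cells against 5.06 and 5.04. GSTP1, a glutathione transferase, was at 11.65 and 12.40 in PC-3 cells and at 4.90 and 4.15 in 22Rv1 cells, a difference of 7.50 and at least 7.14. The AKR1C genes and the UGT2B genes, which conjugate androgens for removal and were called higher in 22Rv1, are families of near-identical copies whose probe sets may read each other.

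Targets and factors of the YAP and TEAD pathway, which senses cell shape and contact, were mostly higher in PC-3, with 13 of 18 (72.2%) called higher in PC-3 against 14.6% of all genes, 3 (16.7%) higher in 22Rv1 against 15.2%, 2 overlapping and a median difference of 2.21. CCN1 was at 11.45 and 9.81 in PC-3 cells and at 4.96 and 4.76 in 22Rv1 cells, and CCN2 was at 11.09 and 10.44 against 5.27 and 6.60; both code for secreted matrix proteins and are known YAP targets. WWTR1, the co-activator TAZ, was at 10.03 and 10.06 against 4.53 and 5.26, while YAP1 differed less, at 11.29 and 10.65 against 9.58 and 9.74. The genes called higher in 22Rv1 were F3, which codes for tissue factor, and the pathway's kinase LATS1 and scaffold WWC1, which restrain YAP, whereas LATS2 and NF2, which also restrain it, were called higher in PC-3. ANKRD1 and TEAD4 overlapped.

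Of 19 integrin and laminin genes, 8 (42.1%) were called higher in PC-3 against 14.6% of all genes, 3 (15.8%) were called higher in 22Rv1, near the 15.2% of all genes, and 6 overlapped. ITGA6, a laminin receptor subunit, was at 13.40 and 13.43 in PC-3 cells and at 5.60 and 5.49 in 22Rv1 cells, and ITGA3 was at 13.78 and 13.29 against 5.76 and 6.23. LAMC1, a laminin chain, was higher in 22Rv1, at 10.39 and 9.48 against 14.42 and 15.06. Among the caveola genes, CAV1 (13.27 and 12.80 against 4.91 and 5.92), CAV2 and EHD2 were called higher in PC-3 and PACSIN2 higher in 22Rv1, while the coat genes CAVIN1 to CAVIN3 were at or below background in both lines. Of the S100 proteins and annexins, which bind calcium and membranes, 14 of 23 (60.9%) were called higher in PC-3 and S100P alone higher in 22Rv1, against 14.6% and 15.2% of all genes, with a median difference of 1.72. S100A16 was at 12.92 and 13.37 against 3.18 and 2.46, and ANXA2 was at 17.59 and 17.83 against 8.44 and 10.94. S100A10, the partner of ANXA2, overlapped at 15.68 and 14.62 against 15.29 and 15.13.

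**Figure D4:**
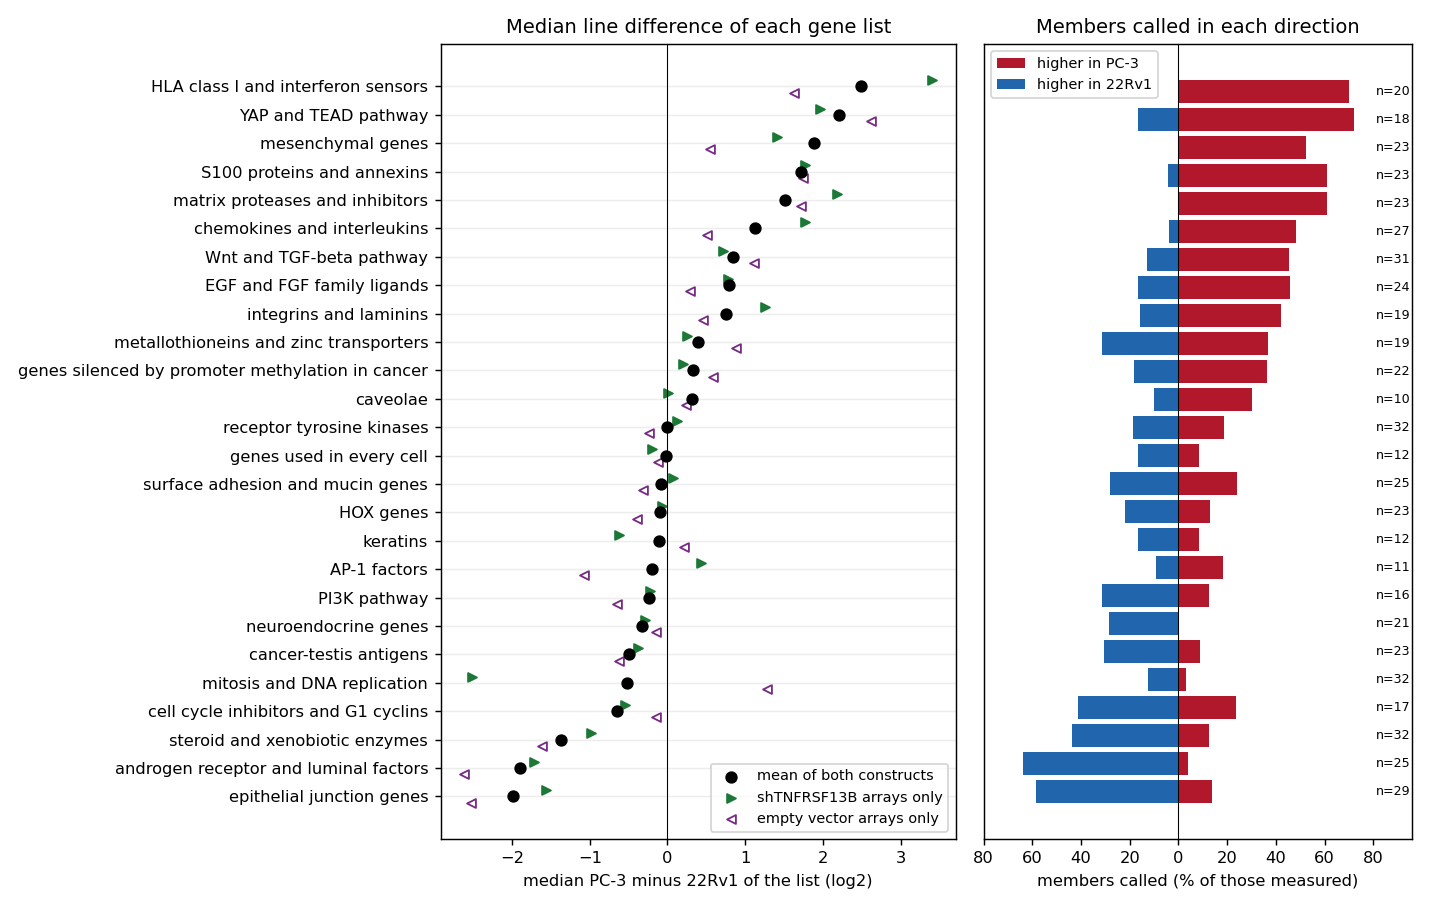
For each of 26 gene lists, the left panel gives the median PC-3 minus 22Rv1 log2 difference from the means (black), the shTNFRSF13B arrays (green) and the empty vector arrays (open purple), and the right panel gives the percent of measured members called higher in PC-3 (red) and in 22Rv1 (blue), with the number measured. The lists run from HLA class I and interferon sensors (median 2.49) to epithelial junction genes (-1.99), and the mitosis and DNA replication list is the one whose symbols lie farthest apart.

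Secreted ligands and their receptors differed gene by gene. FGF2, a growth factor for fibroblasts, was at 12.74 and 11.58 in PC-3 cells and at 4.86 and 4.01 in 22Rv1 cells, at least 7.27 apart. Of 24 measured EGF and FGF family ligands and related growth factors, 11 (45.8%) were called higher in PC-3 against 14.6% of all genes, 4 (16.7%) were called higher in 22Rv1, near the 15.2% of all genes, and 6 overlapped. HGF, the ligand of MET, was among those higher in 22Rv1, at 4.69 and 4.22 against 5.80 and 11.12, whereas MET was higher in PC-3 at 14.51 and 13.96 against 5.07 and 8.72. Receptor tyrosine kinases as a list were level, with 6 of 32 (18.8%) called in each direction, near the shares of all genes, 15 overlapping and a median of -0.01. EPHA2 (11.13 and 11.68 against 5.18 and 7.20) was higher in PC-3, and EPHA3 (3.71 and 3.20 against 10.85 and 10.72) and ERBB3 (7.14 and 6.42 against 11.29 and 13.01) were higher in 22Rv1.

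Of 27 chemokine, interleukin and related cytokine genes, 13 (48.1%) were called higher in PC-3, 1 (3.70%) higher in 22Rv1 and 7 overlapped, against 14.6% and 15.2% called among all genes. IL18, a cytokine released after inflammasome cleavage, was at 11.38 and 10.90 in PC-3 cells and at 2.04 and 3.67 in 22Rv1 cells, at least 6.25 apart. CXCL8, a chemoattractant of neutrophils, was at 10.18 and 7.46 against 4.69 and 4.42. IL1B was at 8.32 and 5.49 against 4.24 and 3.58. The values of CXCL8 and IL1B in PC-3 cells were higher on the shTNFRSF13B array, and without that array 8 of the 27 genes were called higher in PC-3 and 2 higher in 22Rv1. Without the 22Rv1 shTNFRSF13B array these counts were 14 and 3. TNFSF13 and TNFSF13B, the known ligands of TNFRSF13B, were not called, with TNFSF13 overlapping and TNFSF13B at 3.76 and 4.14 against 4.53 and 4.95, under 2-fold and near background.

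In the Wnt and TGF-beta pathways, 14 of 31 genes (45.2%) were called higher in PC-3 against 14.6% of all genes, 4 (12.9%) were called higher in 22Rv1, near the 15.2% of all genes, and 8 overlapped. DKK1, a secreted Wnt antagonist, was at 17.00 and 16.94 in PC-3 cells and at 7.32 and 10.30 in 22Rv1 cells, while DKK3, of the same family, was below background on all arrays. FST, which binds activins, was at 14.43 and 15.04 against 3.78 and 6.35. The receptor TGFBR2 was at 12.08 and 12.11 against 5.91 and 4.33. LEF1, a nuclear factor of Wnt signalling, was higher in 22Rv1, at 5.31 and 5.28 against 15.77 and 11.83. Among the bone morphogenetic proteins, BMP4 was higher in PC-3 (12.85 and 9.56 against 4.10 and 5.18) and BMP2 higher in 22Rv1 (4.03 and 3.58 against 11.09 and 8.07).

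The HLA class I and interferon sensor genes had the highest list median, 2.49, with 14 of 20 (70.0%) called higher in PC-3, none higher in 22Rv1 and 6 overlapping, against 14.6% and 15.2% called among all genes. B2M, the common light chain of HLA class I, was at 17.39 and 14.95 in PC-3 cells and at 13.16 and 13.41 in 22Rv1 cells. STING1, the adaptor of the DNA sensor cGAS, was at 10.94 and 10.28 against 6.71 and 4.40, so its PC-3 values were close together. The RNA sensor RIGI was at 13.86 and 8.54 against 7.53 and 5.54, and the RNA sensor IFIH1 overlapped at 13.01 and 5.43 against 6.94 and 6.52. The list thus held genes with a steady line difference and genes whose PC-3 value was much higher on the shTNFRSF13B array. In 5 of the 14 called genes the gap was wider than the larger construct difference. The median was 3.41 on the shTNFRSF13B arrays and 1.63 on the empty vector arrays, where the YAP and TEAD list stood higher at 2.62. Without the PC-3 shTNFRSF13B array, 11 genes were called higher in PC-3 and 1 higher in 22Rv1 with a median of 1.11. The YAP and TEAD list then stood higher at 2.15, so the rank of the list was not kept.

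Cancer-testis antigens, which are otherwise expressed in germ cells, were on in 22Rv1 for some families. SSX2B had the widest gap higher in 22Rv1, at 3.59 and 3.45 in PC-3 cells and 14.95 and 15.59 in 22Rv1 cells, at least 10.60 apart, and SSX5 was at 3.57 and 2.76 against 12.21 and 12.12. Neither SSX2B nor SSX5 was a member of the gene list. Of the 23 listed genes measured, 7 (30.4%) were called higher in 22Rv1, 2 (8.70%) were called higher in PC-3 and 11 overlapped. Among all genes, 15.2% and 14.6% were called. MAGEA4 was at 5.36 and 5.69 against 10.95 and 11.43. PRAME was higher in PC-3, at 9.91 and 8.76 against 8.53 and 7.56. The SSX and MAGEA genes are near-identical copies and their separate values are uncertain. The other wide gaps higher in 22Rv1 belonged to genes of unlike roles, among them the long non-coding RNA CRNDE (4.06 and 4.13 against 14.36 and 14.64, at least 9.82 apart), the endosomal GTPase RAB5C (2.48 and 2.93 against 13.19 and 12.38, at least 8.11 apart) and ID3, an inhibitor of helix-loop-helix factors (5.52 and 3.97 against 13.49 and 13.83). TARP, which is read from within the T-cell receptor gamma locus in prostate cells, was at 3.88 and 3.43 against 12.16 and 12.93, and its probes may share transcripts with that locus.

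Of 21 neuroendocrine genes, 6 were called higher in 22Rv1 and none higher in PC-3, against 15.2% and 14.6% of all genes. The 28.6% called in all, each higher in 22Rv1, was near the 29.7% of all genes called in either direction. The 6 were led by the synaptic gene SNAP25 (3.30 and 3.12 against 8.78 and 9.45) and the granule gene SCG3 (3.26 and 3.19 against 8.37 and 8.68), while CHGA and NCAM1 were below background in both lines. Of 23 HOX genes, which set position along the body axis, 5 (21.7%) were called higher in 22Rv1 and 3 higher in PC-3, and the 34.8% called in all was near the 29.7% of all genes. Without either the PC-3 shTNFRSF13B or the 22Rv1 empty vector array, 6 were called higher in 22Rv1 and 1 higher in PC-3. Of those called on all arrays, 4 in 22Rv1 were of the HOXC cluster, with HOXC10 at 4.16 and 4.81 against 11.69 and 9.92. Among 12 keratins measured, 2 were called higher in 22Rv1, 1 higher in PC-3 and 8 overlapped, and the 25.0% called in all was near the 29.7% of all genes. KRT8 (14.31 and 12.94 against 16.26 and 16.44) and KRT18 were higher in 22Rv1 although bright in both lines. KRT16 (8.03 and 8.36 against 7.75 and 6.45) was higher in PC-3, and KRT19 overlapped. The basal keratins KRT5 and KRT14 were below background in both lines. Metallothioneins and zinc transporters went both ways. Of 19 measured, 7 (36.8%) were called higher in PC-3 and 6 (31.6%) higher in 22Rv1, against 14.6% and 15.2% of all genes. MT2A, a metallothionein that binds zinc, was higher in PC-3 at 16.87 and 16.65 against 14.32 and 13.97. So were MT1B, MT1F, MT1G, MT1H and MT1X, near-identical copies of 1 cluster, whereas MT1E was called higher in 22Rv1 with a difference of -2.68. The zinc importer SLC39A6 was higher in 22Rv1 at 10.48 and 11.34 against 15.22 and 15.17.

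In the G1 control list, 7 of 17 genes (41.2%) were called higher in 22Rv1, 4 (23.5%) higher in PC-3 and 4 overlapped, against 15.2% and 14.6% called among all genes. Without the PC-3 shTNFRSF13B array, 6 were called higher in 22Rv1 and 1 higher in PC-3. On the values as deposited, 4 were called higher in 22Rv1 and 5 higher in PC-3, and the median difference was 0.17 in place of -0.65. The inhibitor CDKN1A, or p21, was at 4.86 and 5.21 in PC-3 cells and at 9.78 and 13.59 in 22Rv1 cells, and CDKN2A, which codes for p16, was at 11.66 and 11.34 against 9.84 and 7.11. CCND1, or cyclin D1, was bright in both lines and higher in 22Rv1, at 14.33 and 14.47 against 17.08 and 17.41. The gap was wider than the larger construct difference in 4 of the 11 called genes, among them CDKN1A with a gap of 4.57.

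The mitosis and DNA replication list was where averaging over the constructs said least. Of 32 genes, 27 overlapped, 4 (12.5%) were called higher in 22Rv1 and 1 (3.13%) higher in PC-3, against 15.2% and 14.6% of all genes, and the median difference was -0.52. It was -2.52 on the shTNFRSF13B arrays and 1.28 on the empty vector arrays, so the order of the lines turned with the construct. MKI67, a marker of cycling cells, was at 11.21 and 13.06 in PC-3 cells and at 13.95 and 12.19 in 22Rv1 cells, and the mitotic kinase PLK1 was at 12.37 and 14.66 against 14.41 and 12.76. In both genes the PC-3 value was lower with shTNFRSF13B and the 22Rv1 value higher with it. Without the PC-3 empty vector array 20 genes were called higher in 22Rv1 and none higher in PC-3, without the 22Rv1 empty vector array 22 and 1, without the PC-3 shTNFRSF13B array 4 and 7, and without the 22Rv1 shTNFRSF13B array 4 and 9. The replication helicase gene MCM4 was the member with the largest called difference, at 8.41 and 10.10 against 13.27 and 12.06.

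The order of the lines also turned with the construct for genes outside the cell cycle. The counts that follow are over all genes, those of the cell cycle included, on the quantile-normalized scale. In all, 155 genes were at least 2-fold higher in PC-3 with shTNFRSF13B and at least 2-fold lower with the empty vector, and 174 were the reverse, among 3802 that were at least 2-fold apart under both constructs. CYP1A1, a target of the aryl hydrocarbon receptor, was at 6.77 and 5.57 in PC-3 cells and at 4.54 and 14.63 in 22Rv1 cells. NQO1, a quinone reductase, was at 13.57 and 13.91 against 8.72 and 15.44. KRT7, a simple epithelial keratin, was at 11.99 and 13.28 against 15.78 and 9.80. In these 3 genes the wide spread was within 22Rv1, and the PC-3 values fell between the 22Rv1 values.

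Called genes were not spread evenly over the chromosomes. On chromosome 20, 26.9% of 498 genes were called higher in PC-3 and 5.42% higher in 22Rv1, against 14.6% and 15.2% of all genes. On chromosome 21 the shares were 22.1% and 7.69%, on chromosome 18 they were 23.6% and 12.0%, and on chromosome 2 they were 20.3% and 10.1%. The reverse held on chromosome 4, with 11.8% and 26.4%, chromosome 13, with 10.0% and 25.5%, and chromosome 12, with 8.83% and 23.4%. On chromosome 8 both shares were above those of all genes, at 24.5% and 17.9%. Neighbouring genes share position, copy number and at times sequence and are not independent, and copy number was not analysed here. The longest run of neighbours called the same way was of 13 zinc finger genes on chromosome 19, from ZNF493 to ZNF730, higher in 22Rv1. It was followed by a run of 10 genes in all on the X chromosome, made of CT45A genes and SAGE1, also higher in 22Rv1. Both runs hold near-identical copies, which probe sets may not separate. A run of 9 genes of unlike sequence, from IRF2BP2 to LYST on chromosome 1, was also higher in 22Rv1.

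**Figure D5:**
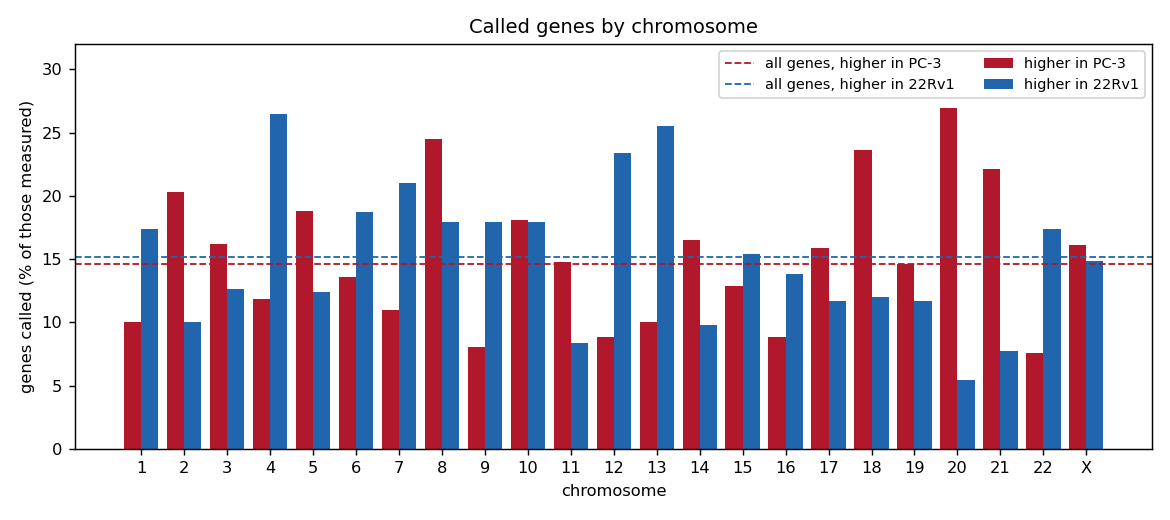
Percent of the measured genes of each chromosome called higher in PC-3 (red bars) and higher in 22Rv1 (blue bars), with dashed lines at the shares of all genes, 14.6% and 15.2%. The red bar is the taller on chromosome 20 (26.9% against 5.42%), and the blue bar on chromosomes 4, 13 and 12.

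Of 12 genes used in every cell, 5 overlapped, 1 was called higher in PC-3 and 2 higher in 22Rv1. The 25.0% called in all was near the 29.7% of all genes but below the 38.9% of genes above background on at least 1 array. The median difference was -0.01. GAPDH was at 18.04 and 17.87 in PC-3 cells and at 18.12 and 17.83 in 22Rv1 cells, and ACTB was at 11.02 and 10.96 against 10.94 and 11.06. POLR2A, the large subunit of RNA polymerase II, was higher in 22Rv1, at 10.23 and 10.87 against 12.52 and 12.37.

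On the values as deposited, 4593 genes were called higher in PC-3 and 1169 higher in 22Rv1, so 79.7% of calls were higher in PC-3 against 49.0% after quantile normalization, and the median difference of all genes moved to 0.54. Of the 32 gene and marker lists, the median of 20 moved by more than the typical spread of their members between constructs and that of 12 did not. In 11 of the 26 gene lists the median turned from below 0, between -0.65 and -0.01, to above 0, between 0.15 and 0.64, among them mitosis and DNA replication (-0.52 to 0.39), neuroendocrine genes (-0.33 to 0.26) and the PI3K pathway (-0.24 to 0.64). Of these, the PI3K pathway and the AP-1 factors (0.55) lay above the median of all genes on that scale. Chemokine and interleukin genes called higher in PC-3 went from 13 to 19 and receptor tyrosine kinases from 6 to 11. The counts in PC-3, then 22Rv1, were 14 and 0 for the mesenchymal list, 5 and 14 for the epithelial junction list and 2 and 13 for the androgen receptor and luminal list. Without the 22Rv1 empty vector array these were 12 and 0, 5 and 16, and 2 and 14.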

How the data were processed

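The authors extracted total RNA with TRIzol and hybridised it to 4 Affymetrix arrays, 1 per condition. They deposited 1 log2 expression value per probe set and array, summarised by RMA. Partek, Expression Console (Affymetrix) and RMA are listed by the submitters' processing notes; no version or genome build was found in the sources used. The number of arrays limits the precision, and the depth of a sequencing library does not apply.

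The platform annotation paired 17709 of 24351 probe sets with 1 gene symbol, and 6642 had no listed symbol. The 4 columns were quantile-normalized over all probe sets (pandas 2.3.3), and a gene was read at its brightest probe set by the mean of 4 arrays, which mattered for 20 genes. No test was made, as each condition has 1 array. The named genes were, per direction, the 15 with the widest gap among genes above background on both arrays of the higher line, TNFRSF13B, the cell type markers, up to 6 members per list with the largest called difference, the 2 overlapping members per list with the largest construct difference, and 3 genes on each side of the 2-fold limit. Members named beyond this rule, the genes whose promoters are shown and the motifs were chosen after values were seen. The gene lists, the markers and the members were chosen with earlier results of these data known. The alternatives were the deposited values, median centring, cyclic loess (limma 3.58.1), a filter on dim genes, other uses of probe sets, limits of 1.5-fold and 4-fold, each construct alone and leaving out each array. The steps were tested on simulated arrays with planted line differences and no construct difference within a line. They were therefore not tested on lines whose arrays differ by construct. Y-linked genes were left out of the named genes, and listed genes with no named probe set were not analysed here.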

Additional observations from a re-analysis of the deposited data

Results flagged for a closer look

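For 16 named genes and 1 gene list, the PC-3 minus 22Rv1 log2 difference had opposite signs under the constructs, at least 1 in size each way for the genes. The difference between constructs was not tested, since each condition has 1 array. In each pair below the value with shTNFRSF13B comes before the value with the empty vector. The genes higher in PC-3 with shTNFRSF13B and lower with the empty vector were CYP1A1 (2.23 and -9.06), NQO1 (4.84 and -1.53), IFIH1 (6.07 and -1.09), STEAP4 (3.12 and -1.54), EPHA4 (2.76 and -1.64), BAMBI (2.17 and -1.62), PCDH9 (1.85 and -1.86), JUN (1.80 and -2.59), DEPTOR (1.70 and -1.36), GAS6 (1.33 and -1.34), MMP10 (1.12 and -1.70) and ALCAM (1.09 and -1.39). Those lower in PC-3 with shTNFRSF13B and higher with the empty vector were KRT7 (-3.79 and 3.49), CENPM (-4.10 and 1.25), HJURP (-1.52 and 3.03) and RBL1 (-1.09 and 1.67). The median of the mitosis and DNA replication list was -2.52 with shTNFRSF13B and 1.28 with the empty vector. These signs are for the quantile-normalized scale. As deposited, the empty vector values in PC-3, then 22Rv1, were 5.70 and 5.30 for IFIH1, 5.69 and 5.67 for STEAP4 and 6.31 and 6.23 for BAMBI. They were 6.34 and 6.01 for DEPTOR and 6.24 and 5.91 for GAS6, so the signs of these genes no longer differed. CYP1A1 (5.87 and 14.01), KRT7, CENPM, HJURP and RBL1 kept opposite signs.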

How the results depend on the processing

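On the values as deposited, 4593 genes were called higher in PC-3 and 1169 higher in 22Rv1, against 2576 and 2682, and 2569 and 1163 of these were shared with the main calls. A limit of 4-fold gave 1140 and 1100. Median centring gave 2461 and 3106 with a median difference of all genes of -0.29, cyclic loess 2566 and 2613, the shTNFRSF13B arrays alone 2923 and 2911, and the empty vector arrays alone 3466 and 3801. Leaving out 1 array in turn gave 2634 to 3373 genes higher in PC-3, 2706 to 3723 higher in 22Rv1 and, for the genes that do not overlap between the lines, 12707 to 15171, the last being without the 22Rv1 shTNFRSF13B array, and these counts grow because fewer values then have to lie apart. Without the 22Rv1 empty vector array, 2137 and 2092 of the main calls were shared. With 1 array per condition, the depth of these results is limited by the number of arrays, and differences against background are lower bounds. No paired test was made, since each condition has 1 array and the constructs are not replicates, and the labels give no replicate numbers. The construct does match the arrays of the lines, and the line difference within each construct is the one given above for its arrays alone.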
